A study of Rattus norvegicus with 8 samples.

Results

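Phospholipase C genes were compared between rat heart muscle cells given extra miR-222 and cells given a scrambled control. The genes were the 10 phospholipase C genes of a named list, Plcxd3, Plcd1, Plcd3, Plcd4, Plcb1, Plcb3, Plcb4, Plce1, Plcg1 and Plcg2, out of 14506 genes measured. Each was represented by the brightest probe set that the platform annotation pairs with that gene alone, and for all 10 there was a single such probe set, so brightness decided nothing. The list was drawn up with the results of this comparison in view. Plcxd3 had the largest positive difference of all genes and Plcd4 ranked 4 from the top, but with a pseudocount of 16 added to the intensities Plcxd3 ranked 2, at 1.66 log2 units behind Rasgrp1 at 1.79. The differences of the members are therefore given as a description, with no p-value and no test of the list.

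The cells were primary ventricular cardiomyocytes of newborn Rattus norvegicus, plated in 6 cm dishes. One group of 4 arrays came from cells transfected with a control microRNA precursor of scrambled sequence, and the other group of 4 from cells transfected with a miR-222 precursor. Both precursors were used at 0.4 μM with Lipofectamine RNAiMAX, which the control cells received too, and RNA was taken 48 h later. Whether each array stands for a culture of its own is not in the labels, and the errors and p-values therefore measure only how these arrays spread, which may be technical. Strain, sex and pooling of hearts are not given in the sources used here.

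Phospholipase C enzymes cut the membrane lipid phosphatidylinositol bisphosphate into inositol trisphosphate (IP3), which releases stored calcium, and diacylglycerol (DAG), which recruits kinases and Ras activators to membranes. The beta enzymes answer to receptors coupled to Gq proteins, the gamma enzymes to tyrosine kinases and the epsilon enzyme to Ras family GTPases, while the delta enzymes depend on calcium. In heart muscle cells, the Gq route carries the signals of catecholamines at alpha adrenergic receptors, of angiotensin and of endothelin, which are known to drive hypertrophic growth.

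The sequence of the microRNA defines the treatment. Its mature 3p strand and that of its genomic neighbour miR-221 are shown 5′ to 3′ as listed by RefSeq on GRCr8, both on the plus strand, at chrX:6022682-6022702 and chrX:6023246-6023268. Capitals mark the seed, bases 2 to 8, which pairs with target transcripts.
rno-miR-222-3p: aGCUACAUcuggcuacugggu
rno-miR-221-3p: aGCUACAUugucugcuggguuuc
The seed GCUACAU is carried by 2 of 724 mature rat sequences in that table, which are those shown. Transcript sequences were not used here, so no match of the seed to a phospholipase C transcript was looked for.

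A difference is the mean log2 intensity with miR-222 less that in control, with its standard error (SE) from a limma fit to all 29170 probe sets, n = 4 arrays in each group. A gene is said to have passed when its Benjamini-Hochberg adjusted p over those probe sets was under 0.05. Of the 10 phospholipase C genes 3 passed as higher (Plcxd3, Plcd4 and Plcg2), 1 passed as lower (Plcd3) and 6 did not pass. Of all genes 24.7% passed, 11.7% as higher and 13.0% as lower. The median difference was 0.14 over the 10 genes and 0.01 over all genes. In the same 4 genes the groups did not overlap, which was the case in 33.3% of all genes (miR-222 above in 16.4% and below in 17.0%). The list was chosen on this contrast, and nothing is read from these counts.

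**Figure D1:**
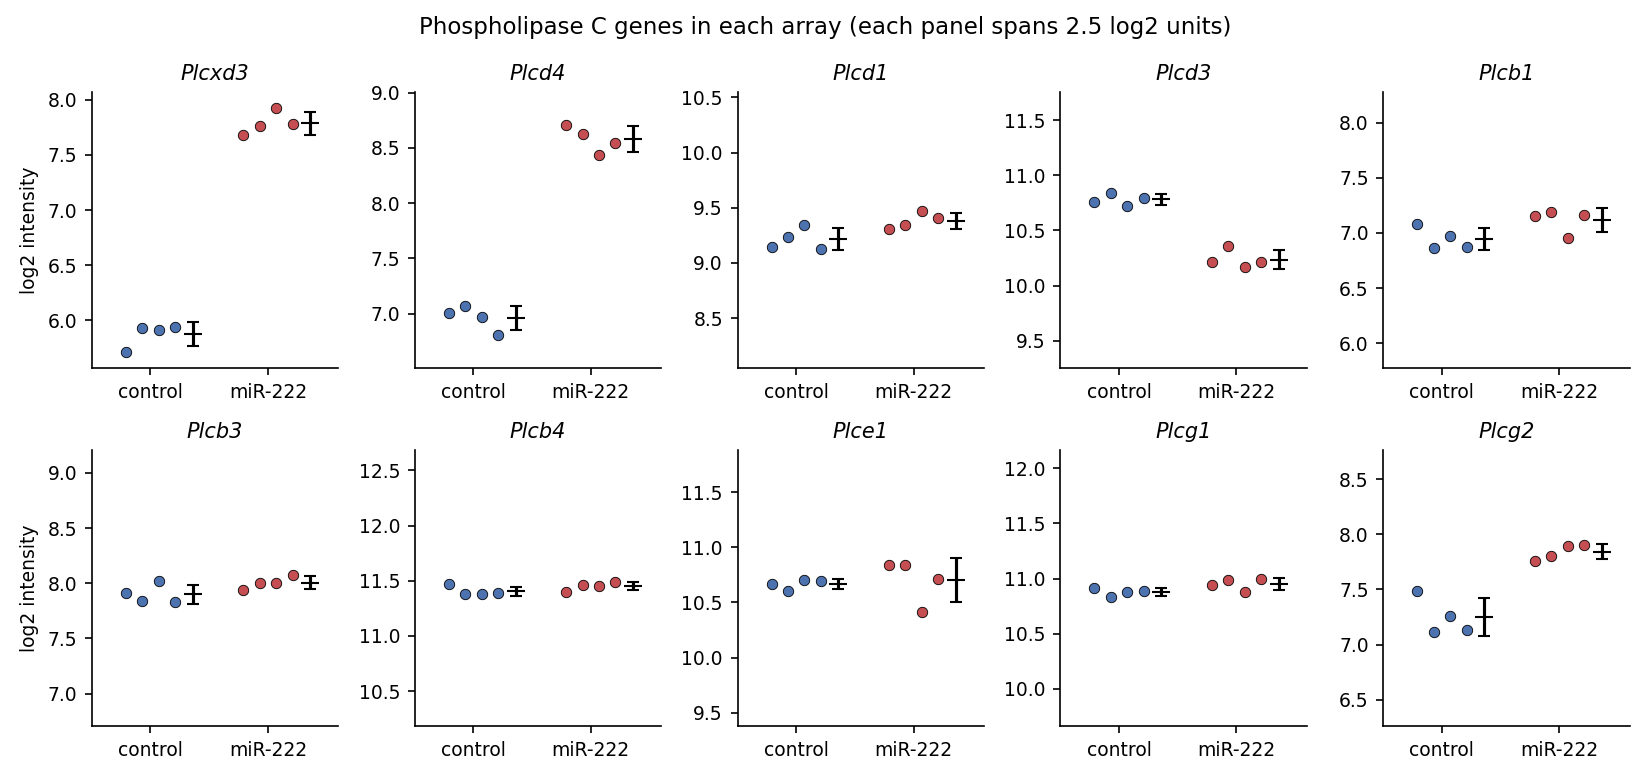
Log2 intensity of the 10 phospholipase C genes in each of the 8 arrays (blue points control, red points miR-222, in replicate order from left to right), with the mean and SD of each group (n = 4) as black bars. Every panel spans the same range of log2 units on its own level, and the groups are apart in Plcxd3, Plcd4, Plcd3 and Plcg2.

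Plcxd3 encodes a phospholipase C-like protein that holds the X part of the catalytic region without the other domains of the classical enzymes. Its intensity was 52.6, 61.1, 60.3 and 61.3 in control replicates 1 to 4, and 204, 217, 242 and 220 in miR-222 replicates 1 to 4. All 4 miR-222 arrays lay above all 4 control arrays, with 1.74 log2 units between the nearest arrays. The mean log2 intensity rose from 5.88 ± 0.11 to 7.79 ± 0.10 (SD, n = 4 each), a difference of 1.91 (SE 0.07), or 3.76-fold. In control cells the probe set was dim, with 10.8% of all probe sets dimmer, and in miR-222 cells 51.0% were dimmer. No detection calls were used here, and how much of the control signal is background was not tested.

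Plcd4, a delta enzyme of the classical domain plan, was the other large difference. Control replicates 1 to 4 had intensities of 128, 134, 125 and 112, and miR-222 replicates 1 to 4 had 418, 395, 346 and 373. Again no array of either group lay within the range of the other, and the gap between the nearest arrays was 1.37 log2 units. Its mean log2 intensity rose from 6.96 ± 0.11 to 8.58 ± 0.12 (SD, n = 4 each), a difference of 1.62 (SE 0.08), or 3.07-fold. The array medians lay from 7.66 to 7.77, so the level in all 4 control arrays was below the median probe set and in all 4 miR-222 arrays above it.

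Of the other delta genes Plcd3 fell and Plcd1 did not pass. The intensities of Plcd3 in control replicates 1 to 4 were 1734, 1835, 1693 and 1775, and those in miR-222 replicates 1 to 4 were 1186, 1310, 1149 and 1184. Here all 4 miR-222 arrays were below all control arrays, and the mean log2 intensities of 10.78 ± 0.05 and 10.24 ± 0.08 (SD, n = 4 each) differed by -0.54 (SE 0.05), or 1.46-fold lower. Plcd1 ranged from 9.12 to 9.34 log2 units in control and from 9.31 to 9.47 in miR-222 arrays. These ranges overlap, the difference was 0.17 (SE 0.06) with a 95% interval of 0.03 to 0.31, and Plcd1 did not pass.

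Of the gamma enzymes, which receptor tyrosine kinases and immune receptors activate, Plcg2 was higher and Plcg1 did not pass. The intensity of Plcg2 was 179, 139, 153 and 141 in control replicates 1 to 4 and 217, 224, 238 and 240 in miR-222 replicates 1 to 4. The highest control array, replicate 1, lay 0.27 log2 units below the lowest miR-222 array. The difference was 0.59 (SE 0.09), or 1.51-fold, between mean log2 intensities of 7.25 ± 0.17 and 7.84 ± 0.07 (SD, n = 4 each). Plcg1 averaged 10.88 ± 0.03 log2 units in control and 10.95 ± 0.05 in miR-222 arrays (SD, n = 4 each), a difference of 0.07 with a 95% interval of -0.03 to 0.17. Of its miR-222 arrays 3 lay above all control arrays, and replicate 3 did not.

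Plcg2 is abundant in blood cells, and 8 leukocyte and macrophage markers were therefore read beside it. Their summed intensity was 965 to 1036 in control and 997 to 1108 in miR-222 arrays, ranges that overlap. Of the 8 markers 7 were below the median probe set, 1 was higher (C1qa, which passed in 1 of the 8 fits without an array, that without control replicate 4) and 7 did not pass. The pan-leukocyte gene Ptprc averaged 5.91 log2 units in control and 5.67 in miR-222 arrays. The part of such cells in the Plcg2 result was not tested.

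The beta enzymes, through which Gq-coupled receptors act, all showed differences under 0.2 log2 units that did not pass. Plcb1 ranged from 6.86 to 7.08 in control and from 6.95 to 7.19 in miR-222 arrays, with a difference of 0.17 and a 95% interval of 0.00 to 0.33. Its miR-222 replicate 3, at 6.95, lay inside the control range, whereas the other 3 arrays of that group lay above it at 7.15 to 7.19. Plcb3 differed by 0.11 with an interval of -0.02 to 0.24. Plcb4 differed by 0.04 with an interval of -0.05 to 0.14. The highest upper bound of the 3 intervals was thus 0.33, and a p that misses the threshold does not show that a gene stayed the same.

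Plce1, which links Ras family GTPases to phospholipase C activity, was split within the miR-222 group. Control arrays lay close together, from 10.60 to 10.70, whereas miR-222 replicates 1 and 2 both read 10.84, replicate 4 read 10.71 and replicate 3 read 10.41. So 3 miR-222 arrays lay above all control arrays and 1 lay below all of them. The difference was 0.03 (SE 0.09, 95% interval -0.19 to 0.25), and without miR-222 replicate 3 it was 0.13, which did not pass either. Without miR-222 replicate 1 or 2 it was -0.02 or -0.01.

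**Figure D2:**
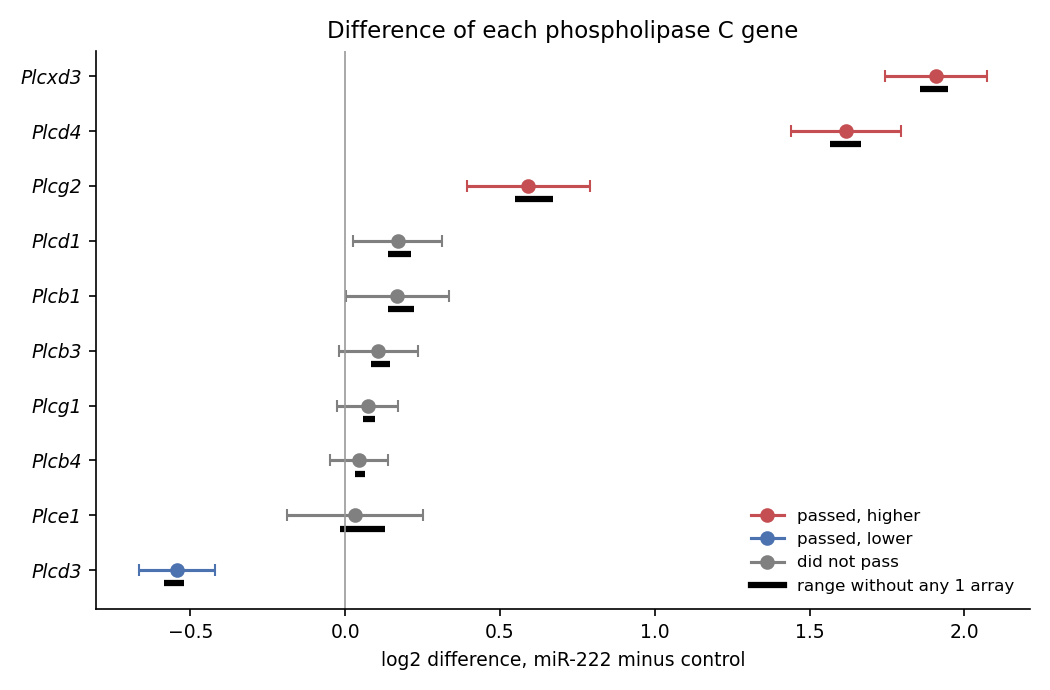
Log2 difference (miR-222 minus control) of each phospholipase C gene with its 95% interval from the limma fit (n = 4 arrays per group), and below each point a black bar for the range of the difference when any 1 of the 8 arrays was left out. Red and blue mark the genes that passed as higher and as lower, and grey the 6 that did not pass, whose differences lie between 0.03 and 0.17.

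The calls of the 10 genes did not depend on any single array. In each of the 8 fits that left out 1 array, 3 members passed as higher and 1 as lower. The difference of Plcxd3 then lay from 1.86 to 1.95, that of Plcd4 from 1.57 to 1.67, that of Plcg2 from 0.55 to 0.67 and that of Plcd3 from -0.58 to -0.52. The SD within a group was 0.03 to 0.20 over the 10 genes.

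A further 4 phospholipase C genes outside the list were measured, and 0 of 4 passed in limma, with 0 at an unadjusted p under 0.05. Of all genes 24.7% passed, and nothing is read from a count over so few genes. Plcb2, the beta enzyme of blood cells, differed by -0.03 (SE 0.07), the sperm enzyme gene Plcz1 by 0.24 (SE 0.16), and the catalytically inactive relatives Plcl1 and Plcl2 by 0.06 (SE 0.14) and -0.01 (SE 0.08). In each of them the ranges of the groups overlapped. Plcxd2 shares its probe set with Cd96 and was left out, and Plch1, Plch2 and Plcxd1 were paired with no probe set here.

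The sequences just upstream of the start sites are shown for the 4 members that passed. Each run is the 250 bases before the RefSeq start on GRCr8, 5′ to 3′ on the strand of the gene. It was searched on both strands for 9 short motifs, and capitals mark every match. They were GATAA (GATA factors), CAGCTG and CACGTG (E-boxes), TGACGTCA (CREB), TGAGTCA (AP-1), GTAAACA (FoxO factors), TATAAA (the TATA box), CCAAT (NF-Y) and GGGCGG (the GC box). Plcxd3 lies on the plus strand at chr2:55294347-55294596, Plcd4 on the plus strand at chr9:83566014-83566263, Plcg2 on the plus strand at chr19:62455946-62456195 and Plcd3 on the minus strand at chr10:88548070-88548319.
Plcxd3: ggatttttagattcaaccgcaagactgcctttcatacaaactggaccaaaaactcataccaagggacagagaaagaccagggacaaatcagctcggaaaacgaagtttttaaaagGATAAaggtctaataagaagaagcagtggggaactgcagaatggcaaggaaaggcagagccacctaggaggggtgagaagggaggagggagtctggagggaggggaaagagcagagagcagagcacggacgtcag
Plcd4: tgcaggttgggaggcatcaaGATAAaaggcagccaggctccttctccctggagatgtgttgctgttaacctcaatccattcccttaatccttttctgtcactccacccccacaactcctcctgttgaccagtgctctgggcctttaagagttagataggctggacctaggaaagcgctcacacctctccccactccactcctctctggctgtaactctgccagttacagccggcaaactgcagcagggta
Plcg2: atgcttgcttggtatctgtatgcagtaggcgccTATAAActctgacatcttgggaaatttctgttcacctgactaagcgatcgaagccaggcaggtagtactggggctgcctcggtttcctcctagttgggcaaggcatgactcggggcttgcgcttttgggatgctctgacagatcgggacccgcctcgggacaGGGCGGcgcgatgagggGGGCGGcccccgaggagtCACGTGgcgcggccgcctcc
Plcd3: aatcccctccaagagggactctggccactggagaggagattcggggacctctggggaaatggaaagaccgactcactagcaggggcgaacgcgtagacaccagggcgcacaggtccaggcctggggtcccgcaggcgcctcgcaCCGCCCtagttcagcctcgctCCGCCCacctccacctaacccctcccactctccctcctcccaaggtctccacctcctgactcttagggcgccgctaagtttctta
Plcxd3 and Plcd4 each hold 1 GATAA match, at 135 and 230 bases before the start, and no other motif. Of all 33469 windows of this length in the table, which include non-coding genes, 23.5% hold GATAA on either strand. Plcd3 holds 2 matches of GGGCGG, both on the opposite strand, where they read CCGCCC. Plcg2 holds 2 matches of GGGCGG, 1 of TATAAA at 217 bases and 1 of CACGTG at 20 bases before the start. GGGCGG occurs in 30.5% of all windows, TATAAA in 12.9% and CACGTG in 5.59%. In the windows of protein-coding genes these shares were 38.9%, 12.1% and 6.16%, and that of GATAA was 21.4%. No match overlapped another motif in these 4 windows.

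A window was found for 9 of the 10 members, all but Plce1, and those of Plcxd3 and Plcd4 had the lowest share of G and C. It was 48.8% in Plcxd3 and 53.2% in Plcd4, beside 59.6% to 86.4% in the other 7, whereas the median of all windows was 51.2% and that of protein-coding genes 54%. The dinucleotide CG occurred 5 times in Plcxd3, 2 times in Plcd4 and 14 to 46 times in the other 7. GATAA was found in no member but those 2, and GGGCGG in 5 members but in neither of them. These are properties of the reference sequence, compared after the values of the genes were known, and a match is not evidence of a bound factor.

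Over the 8 arrays the log2 levels of Plcxd3 and Plcd4 correlated at r = 0.981 (Pearson). This value and those that follow mostly restate the gap between the 2 groups of arrays, and no p is given. The genes whose pattern was most like that of Plcxd3 were Jam3, Maoa, Chpt1, Lrrc8b and Kcnk3 (r = 0.997 in each), with differences of 0.87, 0.51, 0.41, 0.59 and 1.09. For Plcd4 they were Fech, Plppr4, Nutf2, Zdhhc20 and Adgrg1 (r = 0.995 to 0.996), with differences of 0.73, 1.37, 0.37, 0.50 and 1.19. No gene stood on both lists and none was a phospholipase C gene.

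The steps before and after phospholipase C were read in 6 lists with 90 measured genes, of which 19 were higher, 10 were lower and 61 did not pass. This is 32.2% passing beside 24.7% of all genes, with a median difference of 0.06 beside 0.01. Leaving out 1 array gave 12 to 17 higher genes (lowest without control replicate 2) and 6 to 12 lower genes (lowest without control replicate 1 or miR-222 replicate 1), while over all genes 2686 to 3404 passed in place of 3580.

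**Figure D3:**
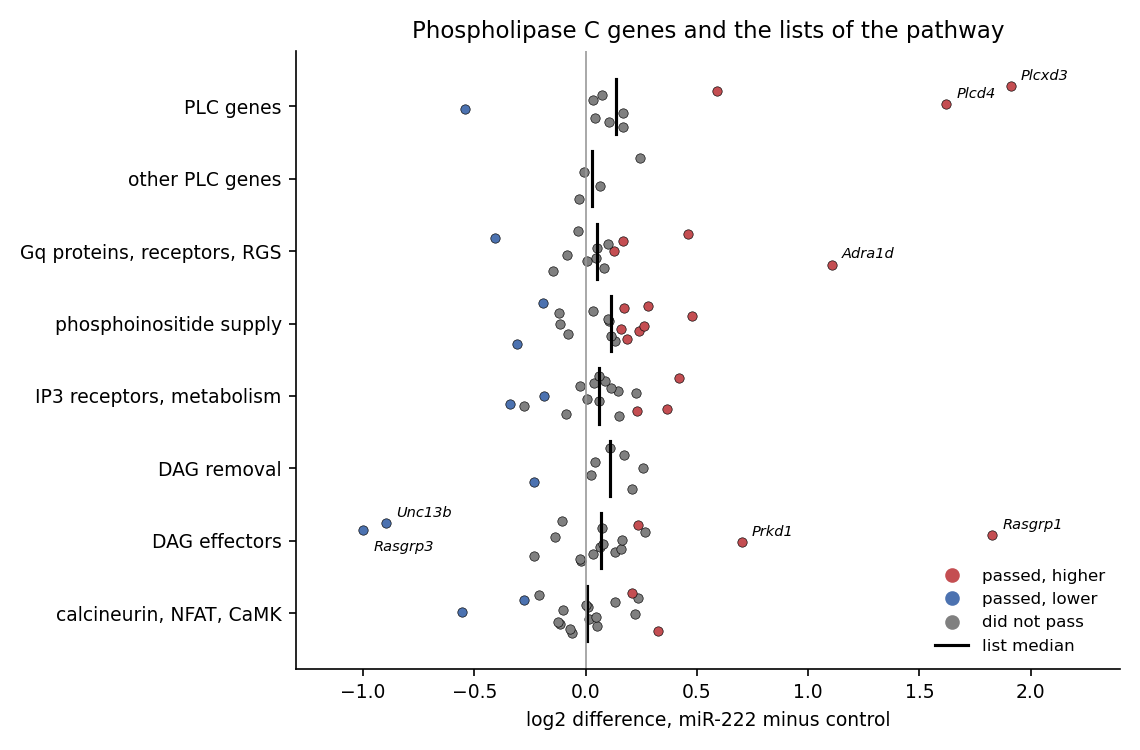
Log2 difference (miR-222 minus control, n = 4 arrays per group) of every measured gene of the phospholipase C list, of its relatives and of the 6 lists of the pathway, with 1 point per gene and a black line at the median of each list. Red points passed as higher, blue points as lower and grey points did not pass, and names are given to differences beyond 0.68 in size.

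Of 18 genes for diacylglycerol effectors 3 rose, 2 fell and 13 did not pass (27.8% passed beside 24.7% of all genes, median 0.07). The Ras activators Rasgrp1 and Rasgrp3, which diacylglycerol brings to the membrane, moved in opposite directions. Rasgrp1 rose from between 8.85 and 8.96 log2 units in control to between 10.57 and 11.05 in miR-222 arrays, a difference of 1.83 (SE 0.10). Its size was in view when the list was written, so no p is given. The lists were all written with earlier results of these data known, and most genes named were picked for the smallest p. The adjusted p-values printed for other genes are therefore descriptions, not tests of a gene chosen beforehand. Rasgrp3 fell from between 12.06 and 12.22 in control to between 11.10 and 11.31 in miR-222 arrays, a difference of -1.001 (SE 0.06, limma adjusted p = 6.28e-05). In neither gene did the groups overlap.

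Prkd1, which encodes protein kinase D, rose by 0.70 (SE 0.05, limma adjusted p = 1.23e-04), from between 8.71 and 8.84 in control to between 9.38 and 9.52 in miR-222 arrays. Unc13b, a vesicle priming protein with a diacylglycerol binding domain, fell by 0.90 (SE 0.04, limma adjusted p = 2.78e-05), from a mean of 10.04 ± 0.04 to 9.14 ± 0.04 log2 units (SD, n = 4 each). Its relative Unc13a rose by 0.24 (SE 0.06, limma adjusted p = 0.0205), which no longer passed without control replicate 2 or miR-222 replicate 1 or 4 (largest adjusted p 0.0575). The list of effectors does not hold every protein kinase C gene. Of the 6 on it that were measured 0 passed in limma, beside 24.7% of all genes. At an unadjusted p under 0.05 were 2 of them, Prkca at -0.23 (SE 0.08) and Prkce at 0.16 (SE 0.05). That count depends on the setting. Both passed with the dimmest probe sets left out, with trend and robust eBayes and with 1 probe set per gene. Prkca alone passed with array weights or without miR-222 replicate 3, and Prkce alone with quantile normalization or without miR-222 replicate 4. The share of all genes passing was 28.9% to 34.1% where both passed and 20.9% to 26.9% where 1 did.

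**Figure D4:**
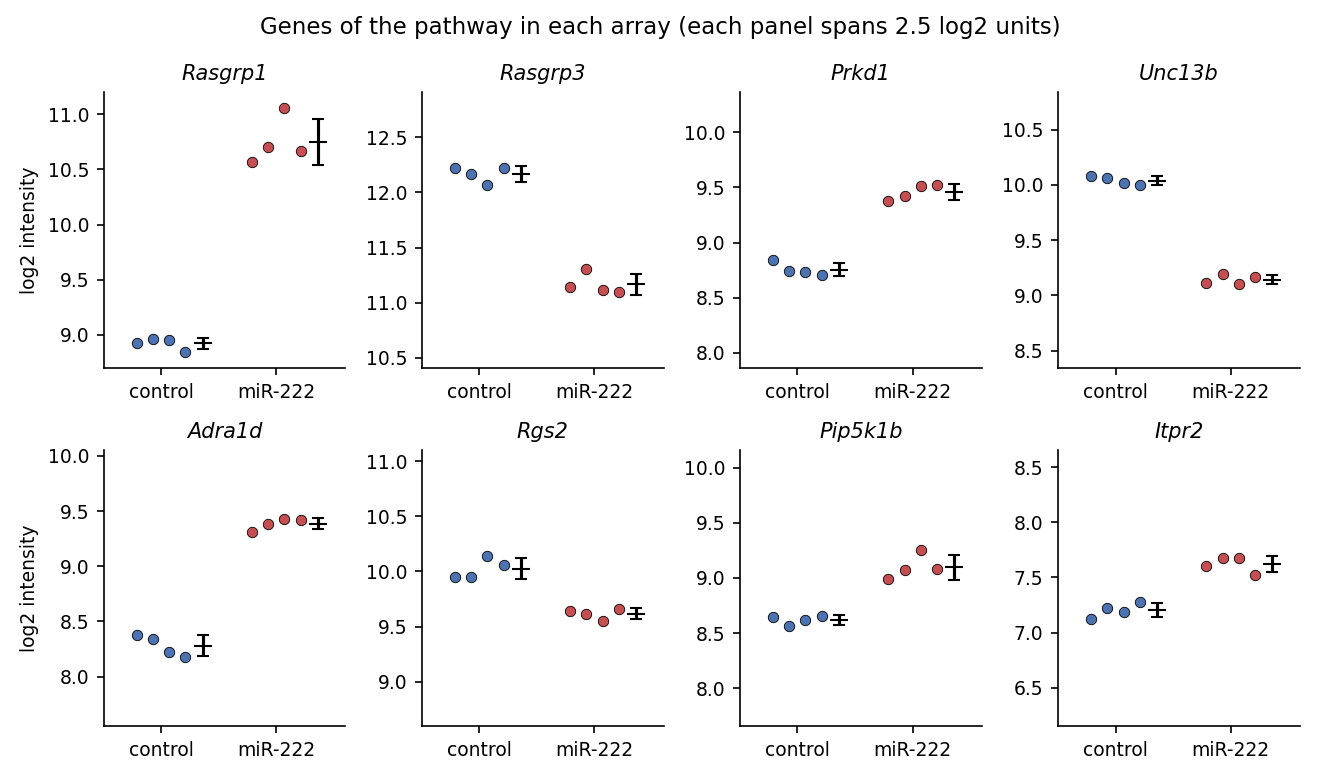
Log2 intensity of 8 genes of the pathway in each of the 8 arrays (blue points control, red points miR-222, in replicate order from left to right), with the mean and SD of each group (n = 4) as black bars. The groups are apart in all 8 panels, higher with miR-222 in Rasgrp1, Prkd1, Adra1d, Pip5k1b and Itpr2 and lower in Rasgrp3, Unc13b and Rgs2.

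Upstream of the beta enzymes, 4 of 13 genes for Gq proteins, their receptors and RGS proteins rose, 1 fell and 8 did not pass (median 0.05). This is 38.5% passing beside 24.7% of all genes. Adra1d, the gene of an alpha adrenergic receptor, rose 2.15-fold, from between 8.18 and 8.37 in control to between 9.31 and 9.42 in miR-222 arrays (difference 1.11, SE 0.06, limma adjusted p = 3.98e-05), while Adra1a at -0.15 (SE 0.06) and Adra1b at 0.08 (SE 0.06) did not pass. Rgs2, which shortens Gq signals, fell by 0.41 (SE 0.06, limma adjusted p = 0.00194), and Rgs4, of the same family, rose by 0.46 (SE 0.08, limma adjusted p = 0.00537). The Gq subunit genes Gnaq and Gna11 rose by 0.17 and 0.13 (limma adjusted p = 0.0338 and 0.0445). Gna11 did not pass when any single array was left out (largest adjusted p 0.108), nor did Gnaq except without miR-222 replicate 2 (largest adjusted p 0.0858), so that the 4 higher genes became 3 without miR-222 replicate 2 and 2 without any other single array. The count of 1 lower gene became 2 without miR-222 replicate 2.

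Of 17 genes for the supply of the lipid substrate 7 rose, 2 fell and 8 did not pass (median 0.11). This is 52.9% passing beside 24.7% of all genes. Pip5k1b, a kinase that makes phosphatidylinositol bisphosphate, rose by 0.48 (SE 0.06, limma adjusted p = 0.00138), the lipid transfer gene Pitpnm1 by 0.28 (SE 0.04, limma adjusted p = 0.00332) and the lipid kinase gene Pi4ka by 0.24 (SE 0.04, limma adjusted p = 0.0062). Cdipt, the synthase of phosphatidylinositol, fell by 0.31 (SE 0.04, limma adjusted p = 7.82e-04), with all miR-222 arrays at 10.91 to 10.96 and all control arrays at 11.22 to 11.28. The other lower gene was Pitpnm2 at -0.19, which passed in only 1 of the 8 fits without an array, that without miR-222 replicate 3 (largest adjusted p 0.109). Without control replicate 2, 3 or 4 the 7 higher genes became 4, and without any other single array they became 5. After centring each array on its median they also became 4.

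On the IP3 side, 3 of 17 genes rose, 2 fell and 12 did not pass (29.4% passed beside 24.7% of all genes, median 0.06). The IP3 receptor gene Itpr2 rose by 0.42 (SE 0.05, limma adjusted p = 0.00129), from between 7.13 and 7.28 in control to between 7.53 and 7.68 in miR-222 arrays. The other receptor genes, Itpr1 at 0.09 (SE 0.04) and Itpr3 at 0.06 (SE 0.06), did not pass. Itpr2 was the dimmest of them in control arrays, with a mean of 7.20 log2 units beside 9.22 for Itpr1 and 7.61 for Itpr3. The inositol phosphatase genes Inpp4a and Inpp1 rose by 0.37 and 0.23 (limma adjusted p = 6.33e-04 and 0.00347). Inpp5a, which removes a phosphate from IP3, fell by 0.34 (SE 0.08, limma adjusted p = 0.0257), and Inpp5e by 0.19 (SE 0.04, limma adjusted p = 0.0222). Among the fits without an array Inpp5a passed in 2, those without miR-222 replicate 2 or 3 (largest adjusted p 0.071). Inpp5e missed the threshold in 3, those without control replicates 1 and 4 and miR-222 replicate 1 (largest adjusted p 0.0699). The 2 lower genes of the list thus became 0 in these 3 fits, and 1 when control replicate 2, control replicate 3 or miR-222 replicate 4 was absent.

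Of 7 genes that remove diacylglycerol 1 fell and 6 did not pass (14.3% passed beside 24.7% of all genes, median 0.11). The lipase gene Daglb fell by 0.23 (SE 0.06, limma adjusted p = 0.0384), which passed in 2 of the 8 fits without an array, those without control replicate 4 and miR-222 replicate 2 (largest adjusted p 0.0978). The kinase gene Dgkb stood at 0.26 (SE 0.08) and did not pass, but did without miR-222 replicate 3, the lowest of its group (adjusted p = 0.0235). Dagla measured 0.21 (SE 0.08) and Dgkz 0.11 (SE 0.06).

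Calcium acts further downstream through calmodulin, the phosphatase calcineurin and NFAT factors. In that list 2 of 18 genes rose, 2 fell and 14 did not pass (22.2% passed beside 24.7% of all genes, median 0.01). Nfatc3, an NFAT factor, fell by 0.55 (SE 0.06, limma adjusted p = 5.75e-04), from a mean of 9.96 ± 0.05 to 9.40 ± 0.10 log2 units (SD, n = 4 each). Ppp3r1, the regulatory subunit of calcineurin, fell by 0.28 (SE 0.05, limma adjusted p = 0.00488). The calmodulin gene Calm3 rose by 0.33 (SE 0.04, limma adjusted p = 0.00137) and the calcineurin regulator Rcan2 by 0.21 (SE 0.05, limma adjusted p = 0.0297). Among the fits without an array Rcan2 passed in 2, those without miR-222 replicate 2 or 3 (largest adjusted p 0.0758). The 2 higher genes of the list became 1 when control replicate 1, 2 or 3 was absent, and likewise for miR-222 replicates 1 and 4. The 2 lower genes became 5 with trend and robust eBayes, and 4 with array weights, with 1 probe set per gene or with the dimmest probe sets left out, where Camk2d was among them each time. Under these settings 26.9% to 34.1% of all genes passed, in place of 24.7%.

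Markers of the cell types that such a culture can hold were read in the same arrays. The summed intensity of 8 cardiomyocyte markers, all above the median probe set, was 67817 to 68302 in control and 60063 to 62700 in miR-222 arrays. That of 8 fibroblast markers was 8839 to 9817 and 7680 to 8787, that of 6 smooth muscle markers 25729 to 26061 and 21490 to 24292, and that of 5 endothelial markers 1655 to 1825 and 1060 to 1208, so these sums were lower with miR-222 as well. Single genes carried much of this in the endothelial and cardiomyocyte lists. Kdr had a mean intensity of 837 in control and 295 in miR-222 arrays, and the sum of the other 4 endothelial markers, at 832 to 924 and 794 to 917, overlapped between the groups. Myh7 fell from 9196 to 6046 while Myh6 (-0.01, SE 0.03) did not pass, and the sum of the other 7 cardiomyocyte markers was 58635 to 59144 and 54750 to 56087. Without Tagln the smooth muscle sum was still lower with miR-222, at 23315 to 23629 and 20310 to 22853. Most of it came from Des and Acta2, so it cannot be taken as an amount of smooth muscle cells. Their geometric mean intensities were 10091 and 9804 in control and 9508 and 9276 in miR-222 arrays. Myh11 was far dimmer, at 285 and 320, and none of the 3 passed. Of the 6 smooth muscle differences 5 were below 0 and 1, that of Myh11, was above 0. Without Postn the fibroblast sum was 8037 to 8786 and 7063 to 8075, ranges that overlap slightly. Of these markers 1 cardiomyocyte gene was higher and 3 were lower, and 2 fibroblast, 1 smooth muscle and 1 endothelial gene (Kdr) were lower. The 2 erythroid genes measured, at 510 to 664 and 538 to 712, did not pass, and no marker was listed at 0. In bulk samples fewer cells of a type and less RNA per cell cannot be told apart, and the part of cell makeup in the differences above was not tested.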

How the data were processed

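The deposited table gave intensity values of 8 arrays on a linear scale. The background correction, summarization and normalization that the authors used are not given in the sources used here. The array medians were 202 to 219, and having 4 arrays a group limits the precision. The series text names another Affymetrix rat array than the one whose annotation pairs with the probe set identifiers, and that annotation gave the gene names. Of 29170 probe sets 15310 paired with 1 gene, 323 with several and 13537 with none. Current symbols were found for 14480 of 14506 genes by gene identifier, and none differed. Replicate numbers follow the order of the sample list and pair nothing.

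Values were taken as log2 without a pseudocount and fitted in R 4.3.3 with the functions lmFit and eBayes of limma 3.58.1. Its p-values are 2-sided and were adjusted over the whole table. Control probe sets could not be recognised and stayed in. The fit was tested on simulated data. Sequences came from RefSeq tables on GRCr8. Plots were made in Python 3.11.15 (matplotlib 3.10.9). The members and lists were chosen with earlier results of these data known. Genes named are all members, the 4 relatives, up to 4 genes of each list with the smallest p, and the 5 genes most correlated with Plcxd3 and with Plcd4. Gna11, Pitpnm2, Inpp5a, Unc13a, Camk2d and the receptor, kinase and marker genes given beside them were named after their values were seen, and the motifs were chosen then too. Alternatives were quantile normalization, median centring, a pseudocount of 16, leaving out the dimmest 25% of probe sets, eBayes with trend and robust settings, array weights, 1 probe set per gene, the mean of a gene's probe sets, and leaving out each array.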

Additional observations from a re-analysis of the deposited data

Results flagged for a closer look

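Dixon's test at the 95% level was run on 73 of the genes read here, in 146 groups of 4 arrays. It looked for a single array far from the others. Of these groups 10 were past the level, where chance alone gives about 1 in 20. Plcxd3 in control replicate 1 was low at 5.72 log2 units against 5.91 to 5.94 in the other 3 control arrays. Plcb1 in miR-222 replicate 3 was low at 6.95 against 7.15 to 7.19. Plcb4 in control replicate 1 was high at 11.47 against 11.38 to 11.39. Gnaq in control replicate 2 was low at 9.30 against 9.42 in the others, and Daglb in control replicate 4 was low at 9.20 against 9.33 to 9.35. Pi4ka in miR-222 replicate 3 was high at 10.23 against 10.12 to 10.13. Gna11 in miR-222 replicate 4 was high at 10.46 against 10.43 in the others. Prkce in miR-222 replicate 4 was low at 10.31 against 10.47 to 10.49, Adra1a in miR-222 replicate 2 was high at 10.49 against 10.29 to 10.32, and Bcs1l in control replicate 1 was high at 9.47 against 9.36 to 9.37. Prkce and Adra1a passed without the array concerned, whereas Gnaq and Gna11 no longer passed without theirs. Pi4ka, Daglb and Bcs1l still passed. The 3 phospholipase C genes named here kept their side of the threshold without the array concerned.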

How the results depend on the processing

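Under all 8 alternatives other than leaving out an array, and under all 8 fits that left one out, the 10 phospholipase C genes kept their calls, with 3 higher and 1 lower. Plcxd3 lay from 1.66 to 1.91 and Plcd4 from 1.502 to 1.63 under the first kind, both lowest with a pseudocount of 16. The sign of Plce1, which did not pass, turned in 2 of the fits without 1 array. Over the 6 lists of the pathway the 19 higher genes were 12 to 17 and the 10 lower genes 6 to 12 without 1 array, and 14 to 24 and 10 to 15 under the other alternatives. The share of all genes that passed moved as well, from 24.7% to between 18.5% and 23.5% without 1 array. Under the other alternatives it was 21.0% (median centring) to 34.1% (dimmest probe sets left out). Gnaq, Gna11 and Rcan2 did not pass after median centring, and Dgkb passed when the dimmest probe sets were left out, with trend and robust eBayes, with array weights and with 1 probe set per gene. The 3 higher genes of the IP3 list were 5 with the dimmest probe sets left out, with trend and robust eBayes and with 1 probe set per gene, and the 1 lower gene of the Gq list was 2 with trend and robust eBayes or array weights. Median centring moved the median of all genes from 0.01 to -0.01. No paired analysis was possible because the labels give no replicate numbers shared by the groups. Dim probe sets, such as that of Plcxd3 in control cells, are limited by background of unknown size.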

Other observations

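The protein-coding genes next to the 4 phospholipase C genes that passed, up to 2 on each side in the order of the RefSeq annotation of GRCr8, were read as a further comparison chosen after the values of the members were known. Beside Plcxd3, the ketone body enzyme gene Oxct1 differed by 0.01 (SE 0.10) and the complement gene C6 by -0.08 (SE 0.12), and neither passed. Beside Plcd4, Cnot9 of a deadenylase complex differed by -0.09 (SE 0.05) and the zinc finger gene Zfp142 by -0.11 (SE 0.05), while Bcs1l, which assembles respiratory complex III, was lower at -0.21 (SE 0.04, limma adjusted p = 0.00935). Of 4 measured neighbours of Plcd3 1 was higher, Dcakd at 0.27 (SE 0.04, limma adjusted p = 0.00393), and 3 did not pass. The 3 measured neighbours of Plcg2 differed by -0.19 to 0.09 and did not pass. Of all genes 24.7% passed, and nothing is read from these calls of neighbours. Plcb1 and Plcb4 lie next to each other in that order.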
